A study of Homo sapiens with 18 samples.

Results

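Messenger RNA levels of 9 genes that handle oxidants and iron were followed in 2 breast cancer cell lines treated with an inhibitor of the kinases CDK4 and CDK6. The genes were chosen by name, for their roles, with earlier results of these data known, out of 60656 gene rows in the count table. They are the glutamate-cysteine ligase subunits GCLC and GCLM, the quinone reductase NQO1, the thioredoxin reductase TXNRD1, the sulfiredoxin SRXN1, the haem oxygenase HMOX1, the ferritin subunits FTH1 and FTL, and the phospholipid hydroperoxidase GPX4. Of the 9 genes, 8 had counts and could be tested.

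NRF2, the product of NFE2L2, is a transcription factor that KEAP1 and the CUL3 ubiquitin ligase hold at low levels in unstressed cells. When KEAP1 is modified by oxidants or electrophiles, NRF2 accumulates, pairs with small MAF proteins and binds antioxidant response elements, while BACH1 occupies many of the same elements as a repressor. Ferritin, a shell of heavy (FTH1) and light (FTL) chains, stores iron in a form that does not feed radical reactions, and its translation is also governed by iron through an element in the 5′ end of its messages.

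CAMA-1 and ZR-75-1 are established oestrogen receptor-positive lines, used here as unmodified parental cultures with the wild-type genotype label. Cells of each line received abemaciclib at 500 nM, palbociclib at 500 nM or an equal volume of the solvent DMSO for 5 days, all in RPMI-1640 with fetal bovine serum. Each of the 6 groups had 3 libraries. The reporting summary describes them as independent biological replicates, with the experiment performed once. RNA was read from the 3′ end of transcripts with a Lexogen QuantSeq kit and deposited as raw counts per gene.

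Library totals ran from 2308442 to 4146549 counts. Levels are given as CPM, counts per 1000000 of the library total after TMM scaling over all 18 libraries. They are not divided by transcript length, because a 3′ kit reads mainly 1 end of each transcript. Mitochondrially encoded transcripts held 14.8 to 16.6% of the counts in CAMA-1 with DMSO and 22.9 to 26.1% with either drug, against 17.3 to 22.6% over all ZR-75-1 libraries. All 7 luminal epithelial markers were detected, with summed levels of 4648 to 6679 CPM, while immune, endothelial and basal markers each summed to at most 1.34 CPM in a library. The luminal sum in CAMA-1 went from 4648 to 4941 CPM with DMSO to 6291 to 6679 CPM with a drug. In ZR-75-1 it was 5433 to 5649 CPM with DMSO, 6302 to 6525 CPM with abemaciclib and 4905 to 5255 CPM with palbociclib. KRT5, CD3E, CDH5, COL1A2 and PDGFRB were at 0, while fibroblast markers summed to 14.4 to 33.9 CPM, from COL1A1 and COL3A1 alone. In bulk RNA, a lower level per cell and fewer cells with the transcript cannot be told apart.

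In CAMA-1 the members moved in opposite directions under the same drug. Both ferritin subunits rose with abemaciclib, and the other 6 tested members fell, most of all NQO1. In ZR-75-1 the ferritin subunits rose with both drugs, while NQO1 fell with abemaciclib and rose with palbociclib, and the other 5 tested members were not called. The plot of members by library shows all values behind these statements. Calls rest on edgeR's quasi-likelihood test at a threshold of 0.05 for the Benjamini-Hochberg adjusted p over all genes of a comparison. Adjusted p has this meaning throughout unless another test is named, and ± after a log2 fold change is its standard error (SE).

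**Figure D1:**
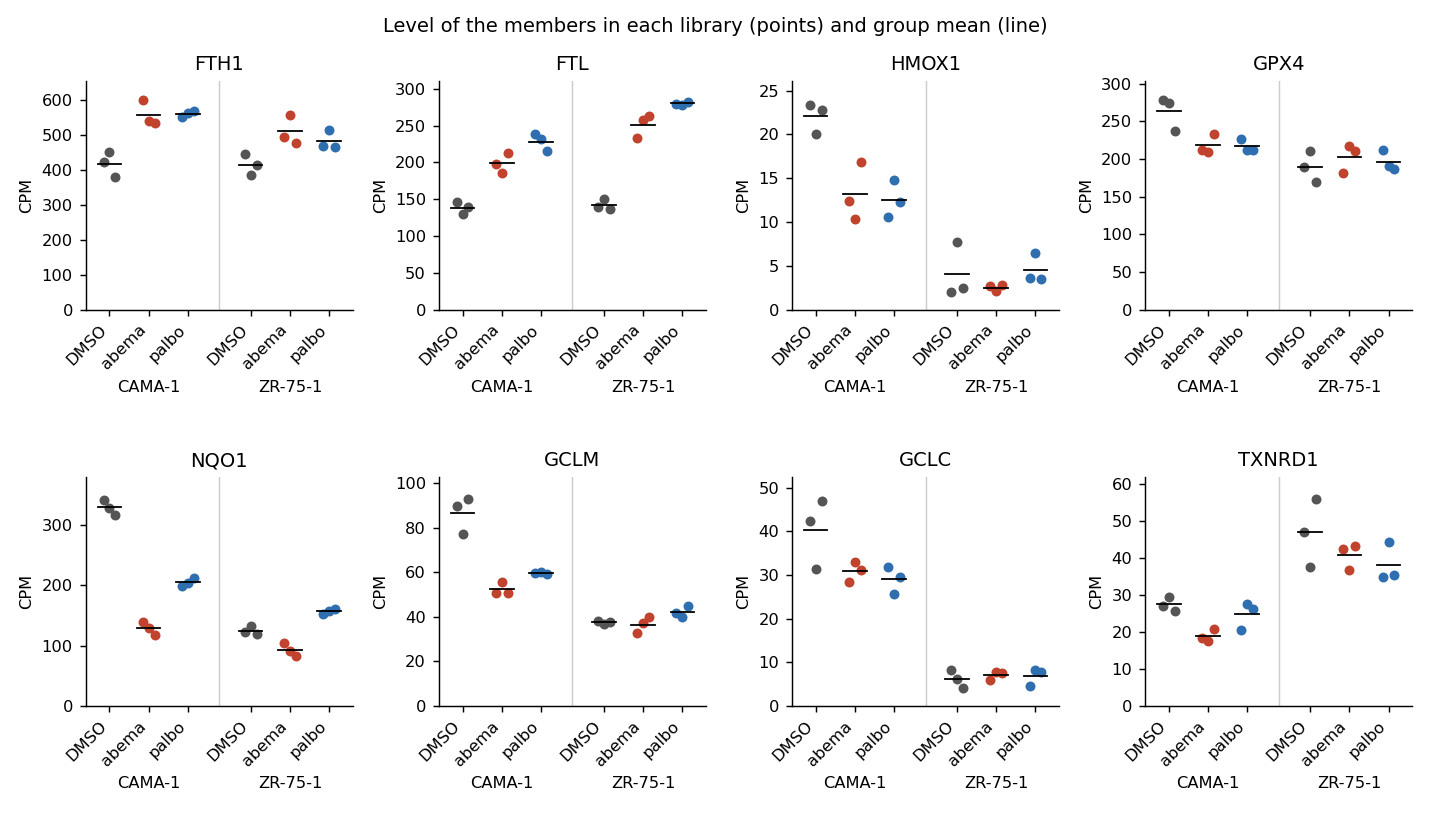
Level in CPM (vertical axes, linear from 0) of the 8 members with counts in each of the 18 libraries, by line and treatment; points are libraries and black lines are group means. FTH1 and FTL lie higher with either drug than with DMSO in both lines, whereas NQO1, GCLM, HMOX1 and GPX4 lie lower with either drug in CAMA-1.

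FTH1, the ferritin heavy chain with the ferroxidase activity, lies at chr11:61959718-61967634 on the minus strand. In CAMA-1 its level was 423, 449 and 379 CPM with DMSO, 599.8, 538 and 533 CPM with abemaciclib, and 551, 561 and 567 CPM with palbociclib. All 6 drug libraries were above all 3 DMSO libraries. The log2 fold change was 0.39 ± 0.07 for abemaciclib (adjusted p = 1.1e-05) and also 0.39 ± 0.07 for palbociclib (adjusted p = 8.5e-06). In ZR-75-1 the level was 444, 384 and 415 CPM with DMSO, 495, 557 and 477 CPM with abemaciclib, and 468, 514 and 466 CPM with palbociclib. Again no drug library overlapped with DMSO, though the margin was narrow. FTH1 rose by 0.29 ± 0.07 log2 units with abemaciclib (adjusted p = 0.00089) and, for palbociclib, by 0.22 ± 0.07 (adjusted p = 0.019). The palbociclib call in ZR-75-1 was lost without DMSO replicate 2 (0.16, adjusted p = 0.12), without DMSO replicate 3 (0.21, adjusted p = 0.050) and without palbociclib replicate 2 (0.16, adjusted p = 0.15).

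FTL, the ferritin light chain that helps the iron core form, lies at chr19:48965309-48966879 on the plus strand. Its message carries an iron-responsive element, and its promoter entry in RefSeq (GRCh38.p14) holds the loop letters of that element in the transcribed part. The 30 bases around them, from the plus strand at chr19:48965329-48965358, are shown because FTL rose in all 4 comparisons with DMSO. The loop CAGTGN, which begins 39 bases into the transcript, is in capitals.
FTL: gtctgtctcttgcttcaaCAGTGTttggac
The loop letters, searched on the sense strand of the first 50 transcribed bases, were found in 6.36% of 35116 RefSeq promoter entries, so the match is a description only.

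In CAMA-1, FTL was at 146, 130.3 and 139 CPM with DMSO, 198, 186 and 213 CPM with abemaciclib, and 238, 232 and 215 CPM with palbociclib. In ZR-75-1 it was at 139, 151 and 137 CPM with DMSO, 234, 257 and 264 CPM with abemaciclib, and 279, 279 and 283 CPM with palbociclib. Every drug library exceeded every DMSO library in its line, and in ZR-75-1 with palbociclib the level came close to doubling. The log2 fold changes in CAMA-1 were 0.49 ± 0.08 with abemaciclib (adjusted p = 3.2e-06) and, for palbociclib, 0.69 ± 0.08 (adjusted p = 1.8e-09). In ZR-75-1 they were 0.81 ± 0.08 (adjusted p = 1.6e-12) and 0.97 ± 0.08 (adjusted p = 4.2e-15). Each FTL call within a line held in every fit with 1 library left out.

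Because the light chain gained more than the heavy chain, the ratio of FTH1 to FTL counts within a library was examined, which does not depend on scaling. In ZR-75-1 the ratio was 2.92 ± 0.33 (SD, n = 3) in the DMSO libraries, 2.03 ± 0.19 under abemaciclib and 1.72 ± 0.11 under palbociclib. No drug library of ZR-75-1 reached a DMSO library. In CAMA-1 it was 3.03 ± 0.38 in the DMSO libraries, 2.81 ± 0.27 under abemaciclib and 2.46 ± 0.16 under palbociclib. There the abemaciclib and DMSO libraries overlapped and the palbociclib and DMSO libraries did not. By exact permutation (two-sided), p was 0.1 for abemaciclib in ZR-75-1 and for palbociclib in both lines, the lowest that groups of 3 can reach, and 0.5 for abemaciclib in CAMA-1. Over the 14 ratio comparisons made, the lowest Benjamini-Hochberg value from these exact tests was 0.233, so none could pass a threshold of 0.05. The ratio comes from the same libraries as the fold changes above, so it describes them and is not separate support.

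FTH1 and FTL together took 0.0606 ± 0.0032% (SD, n = 3) of CAMA-1 counts with DMSO, 0.0741 ± 0.0030% with abemaciclib and 0.0783 ± 0.0010% with palbociclib. In ZR-75-1 the shares were 0.0542 ± 0.0022%, 0.0740 ± 0.0043% and 0.0741 ± 0.0034%. All drug libraries lay above the DMSO libraries of their line, each at the smallest exact permutation p of 0.1 (0.14 after adjustment over 7 comparisons). Rows of ferritin pseudogenes, which share sequence with the parent genes, held few counts. The 25 rows of FTH1 copies held 1.25% of the FTH1 count and the 16 rows of FTL copies 1.10% of the FTL count, and adding them to the parents changed none of the 18 FTH1 and FTL results. Exons of BEST1 overlap 63.2% of FTH1 exonic bases on the opposite strand, and BEST1 itself had 1 count in all libraries. Low counts in these rows cannot show that FTH1 and FTL lost no reads. How reads in shared sequence or overlaps were counted is not given.

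**Figure D2:**
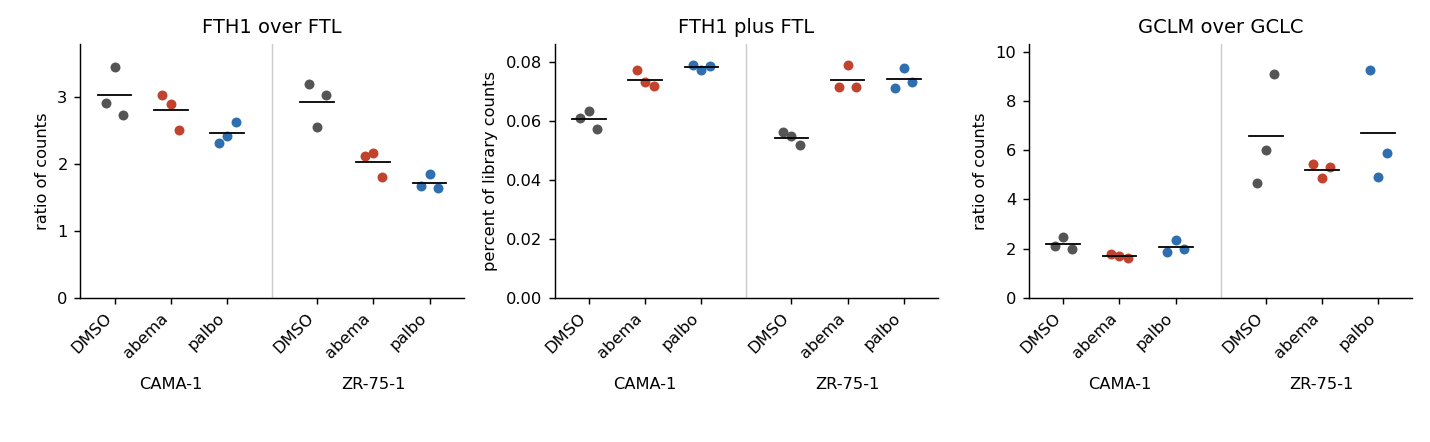
Ratio of FTH1 to FTL counts, share of FTH1 plus FTL in the library total (percent) and ratio of GCLM to GCLC counts in each library (points) with group means (lines); vertical axes start at 0. The FTH1 to FTL ratio falls to 1.72 in ZR-75-1 with palbociclib from 2.92 with DMSO, and the GCLM to GCLC ratio is higher in ZR-75-1 than in CAMA-1 in every group.

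HMOX1, which cleaves haem and releases its iron, lies at chr22:35380361-35394214 on the plus strand. In CAMA-1 it stood at 23.3, 20.1 and 22.75 CPM with DMSO, 12.4, 10.3 and 16.9 CPM with abemaciclib, and 10.6, 14.8 and 12.2 CPM with palbociclib. All drug libraries were below all DMSO libraries. HMOX1 fell by 0.76 ± 0.21 log2 units with abemaciclib (adjusted p = 0.0038) and, for palbociclib, by 0.85 ± 0.21 (adjusted p = 0.0011). In ZR-75-1 it was near the limit of detection, with 1.96, 7.67 and 2.42 CPM with DMSO, 2.65, 2.08 and 2.76 CPM with abemaciclib, and 3.65, 6.44 and 3.53 CPM with palbociclib. DMSO replicate 2 stood apart there with 25 counts, against 6 and 7 in the other DMSO libraries. The log2 fold change was -0.71 ± 0.53 with abemaciclib (adjusted p = 0.31) and, for palbociclib, 0.13 ± 0.47 (adjusted p = 0.87), and without that library the values were 0.18 and 1.02, with adjusted p of 0.87 and 0.23. The libraries of each drug overlapped with those of DMSO, and neither difference was called.

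GPX4, the selenoenzyme that reduces lipid hydroperoxides in membranes and restrains ferroptosis, lies at chr19:1103982-1106791 on the plus strand. In CAMA-1 it was at 278, 275 and 237 CPM with DMSO, 213, 209 and 233 CPM with abemaciclib, and 227, 213 and 212 CPM with palbociclib. The drug libraries were lower without overlap, by a small margin. GPX4 fell by 0.30 ± 0.08 log2 units with abemaciclib (adjusted p = 0.0021) and, for palbociclib, by 0.30 ± 0.08 (adjusted p = 0.0016). In ZR-75-1 it was at 189, 211 and 169.6 CPM with DMSO, 181, 217 and 210.0 CPM with abemaciclib, and 211, 191 and 187 CPM with palbociclib. These groups overlapped, with differences of 0.08 ± 0.09 (adjusted p = 0.50) and 0.04 ± 0.09 (adjusted p = 0.76).

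NQO1, which reduces quinones by a 2-electron step and is often read as a marker of NRF2 activity, lies at chr16:69706996-69726668 on the minus strand. In CAMA-1 it was at 342, 329 and 317 CPM with DMSO, 139.8, 129 and 118 CPM with abemaciclib, and 199, 203 and 213 CPM with palbociclib. The 3 treatments did not overlap, with palbociclib between the other two. NQO1 fell by 1.38 ± 0.08 log2 units with abemaciclib (adjusted p = 1.8e-18) and, for palbociclib, by 0.71 ± 0.08 (adjusted p = 1.8e-10). In ZR-75-1 the level was 122, 133 and 119 CPM with DMSO, 105, 91.4 and 82.5 CPM with abemaciclib, and 153, 157 and 161 CPM with palbociclib. Here too the 3 treatments were fully separate, but DMSO lay between the drugs. NQO1 fell by 0.43 ± 0.10 with abemaciclib (adjusted p = 0.00027) and rose by 0.32 ± 0.09 with palbociclib (adjusted p = 0.0046). These 4 calls held in each fit with 1 library left out.

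GCLM, the modifier subunit that raises the activity of glutamate-cysteine ligase, the first enzyme of glutathione synthesis, lies at chr1:93885199-93909456 on the minus strand. Promoter entries were present for 7 of the 9 members in RefSeq (10 entries), and the core letters of the antioxidant response element, TGACNNNGC on either strand from 250 bases before to 50 bases after the start, were found in those of GCLM and TXNRD1. They occurred in 13.35% of all 35116 entries. HMOX1 and FTH1 had no entry, so neither was searched for this core or for the loop letters shown for FTL. The GCLM match and the 3 matches of TXNRD1 are shown because the genes share the element and differed in opposite directions between the lines with DMSO. Each is written 5′ to 3′ along its gene, with the core, on either strand, in capitals.
GCLM: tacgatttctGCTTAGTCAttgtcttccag
TXNRD1 first start, far: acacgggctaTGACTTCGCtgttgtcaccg
TXNRD1 first start, near: gcgtccttcgGCTCCGTCAgttcccacagg
TXNRD1 second start: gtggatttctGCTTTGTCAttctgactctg
The GCLM stretch is from the minus strand at chr1:93909445-93909474, with the match 34 bases before the start. The TXNRD1 stretches are from the plus strand at chr12:104215670-104215699, chr12:104215761-104215790 and chr12:104286920-104286949, with matches 99, 8 and 102 bases before a start. No match in the other windows says nothing of NRF2 binding elsewhere.

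In CAMA-1, GCLM was at 89.8, 77.4 and 93.1 CPM with DMSO, 50.8, 55.8 and 50.6 CPM with abemaciclib, and 59.7, 60.3 and 59.2 CPM with palbociclib. The 3 treatments did not overlap, and abemaciclib was lowest. GCLM fell by 0.77 ± 0.11 log2 units with abemaciclib (adjusted p = 2.1e-07) and, for palbociclib, by 0.57 ± 0.11 (adjusted p = 2.7e-05). ZR-75-1 libraries held 38.3, 36.8 and 37.7 CPM with DMSO, 32.5, 37.2 and 39.9 CPM with abemaciclib, and 41.5, 40.0 and 45.1 CPM with palbociclib. The changes were -0.05 ± 0.15 (adjusted p = 0.82) and 0.16 ± 0.14 (adjusted p = 0.42), although the palbociclib libraries did not overlap with DMSO.

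GCLC, the catalytic subunit of the same enzyme, lies at chr6:53497341-53616970 on the minus strand. In CAMA-1 it was at 42.5, 31.5 and 46.9 CPM with DMSO, 28.3, 33.0 and 31.2 CPM with abemaciclib, and 31.8, 25.6 and 29.6 CPM with palbociclib. DMSO replicate 2 lay within the range of both drug groups. GCLC fell by 0.44 ± 0.15 log2 units with abemaciclib (adjusted p = 0.020) and, for palbociclib, by 0.52 ± 0.15 (adjusted p = 0.0060). The abemaciclib call did not hold in DESeq2 (adjusted p = 0.090), nor without DMSO replicate 1 (adjusted p = 0.058), DMSO replicate 3 (-0.31, adjusted p = 0.16) or abemaciclib replicate 1 (adjusted p = 0.10). Without DMSO replicate 3 the palbociclib call was also lost (-0.39, adjusted p = 0.071). In ZR-75-1 GCLC was low, with 12 to 26 counts a library, or 4.15 to 8.19 CPM over all 9 libraries, and the changes were 0.18 ± 0.37 (adjusted p = 0.75) and 0.11 ± 0.36 (adjusted p = 0.86).

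The GCLM to GCLC ratio of counts in CAMA-1 was 2.19 ± 0.24 (SD, n = 3) with DMSO, 1.70 ± 0.09 with abemaciclib and 2.08 ± 0.25 with palbociclib. In ZR-75-1 it was 6.59 ± 2.26, 5.21 ± 0.31 and 6.68 ± 2.27. Abemaciclib libraries of CAMA-1 did not overlap with either other group (exact permutation p = 0.1 for each, the smallest possible, and 0.233 after Benjamini-Hochberg adjustment).

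TXNRD1, the cytosolic reductase that keeps thioredoxin active, lies at chr12:104215779-104350307 on the plus strand. In CAMA-1 it was at 27.1, 29.5 and 25.7 CPM with DMSO, 18.3, 17.6 and 20.9 CPM with abemaciclib, and 20.5, 27.6 and 26.2 CPM with palbociclib. Abemaciclib libraries were below DMSO without overlap, and palbociclib libraries overlapped with both other groups. TXNRD1 fell by 0.56 ± 0.18 log2 units with abemaciclib (adjusted p = 0.010), and the difference with palbociclib was -0.18 ± 0.17 (adjusted p = 0.42). ZR-75-1 libraries held 47.2, 37.7 and 56.0 CPM with DMSO, 42.5, 36.8 and 43.4 CPM with abemaciclib, and 34.8, 44.4 and 35.3 CPM with palbociclib. These groups overlapped, with differences of -0.20 ± 0.15 (adjusted p = 0.30) and -0.30 ± 0.15 (adjusted p = 0.12). Without ZR-75-1 DMSO replicate 2 the palbociclib difference passed the test (-0.44, adjusted p = 0.030).

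SRXN1, which restores over-oxidised peroxiredoxins, had a count of 0 in all 18 libraries and was not tested. A count of 0 allows up to 3 counts, for counting error only, and 1 count stood for 0.241 to 0.433 CPM before TMM scaling. Its row, at chr20:646615-653200 on the minus strand, shares 90.7% of its exonic bases with exons of ENSG00000270299 on the same strand, which also had 0 counts. How reads in shared exons were counted is not given in the sources used here, so its level is uncertain and the part of the overlap in the zero was not tested.

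In CAMA-1 with abemaciclib, 2 of the 8 tested members were called higher and 6 lower, where 20.3% of 11053 tested genes were called higher and 20.1% lower. With palbociclib, 2 were higher and 5 lower, against 18.4% and 18.7% of genes. In ZR-75-1 with abemaciclib, 2 were higher and 1 lower, against 17.9% and 18.3% of 11017 genes. With palbociclib, 3 were higher and 0 lower, against 14.5% and 13.4%; DESeq2 called 0 members lower in that comparison as well, and at an unadjusted p under 0.05 edgeR had TXNRD1 alone lower. The median log2 fold change over the 8 members was -0.50 for abemaciclib and -0.41 for palbociclib in CAMA-1, then 0.01 and 0.15 in ZR-75-1, while the median over all tested genes lay between -0.01 and 0.01 in all 4. Mitochondrially encoded counts moved with treatment in CAMA-1, and without them all of these calls were kept, with values such as -1.38 for NQO1, -0.76 for GCLM and 0.50 for FTL under abemaciclib. The comparisons of a line share their DMSO libraries, so their results are not independent of each other.

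**Figure D3:**
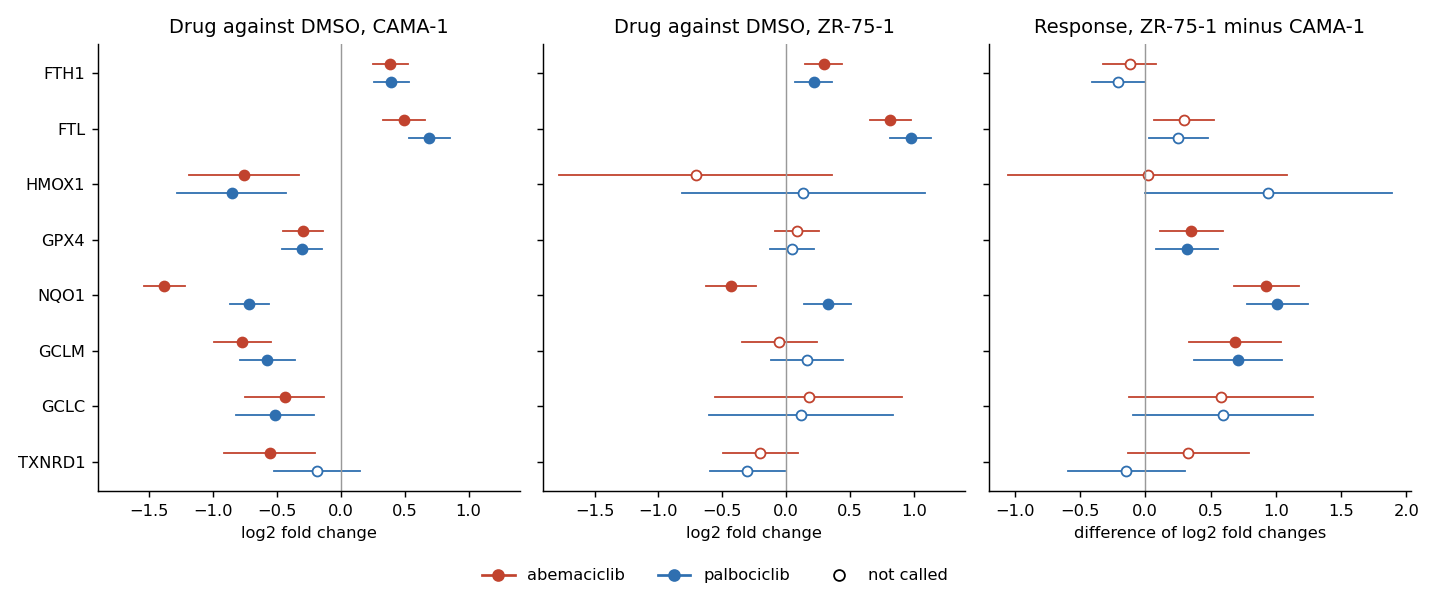
Log2 fold change against DMSO in each line (left and middle) and its difference between lines (right) for the 8 tested members, with 95% confidence intervals as bars; red is abemaciclib, blue is palbociclib and open points are not called. In CAMA-1 only the ferritin subunits lie above 0, and on the right NQO1, GCLM and GPX4 are called above 0 for both drugs.

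The responses of the lines were compared directly in 1 fit over all 18 libraries, by subtracting the CAMA-1 response from the ZR-75-1 response on the log2 scale. For abemaciclib 3 of 8 members had a higher response in ZR-75-1 and 0 a lower one, where 8.19% and 10.0% of 11987 genes did. For palbociclib the counts were again 3 and 0, against 10.0% and 10.3% of genes. DESeq2 also called 0 members lower in both, and at an unadjusted p under 0.05 edgeR had 0 for abemaciclib and FTH1 alone for palbociclib. In both comparisons the 3 genes were NQO1, GCLM and GPX4.

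NQO1 differed most, by 0.93 ± 0.12 log2 units for abemaciclib (adjusted p = 3.0e-08) and 1.01 ± 0.12 for palbociclib (adjusted p = 4.2e-10). Under palbociclib its level went in opposite directions, down in CAMA-1 and up in ZR-75-1. For GCLM the difference was 0.69 ± 0.18 (adjusted p = 0.0028) and 0.71 ± 0.17 (adjusted p = 0.0012). The NQO1 and GCLM differences were called in all 12 fits with 1 library left out, for each drug.

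GPX4 differed by 0.35 ± 0.12 for abemaciclib (adjusted p = 0.029) and 0.32 ± 0.12 for palbociclib (adjusted p = 0.046), and both calls were fragile. With 1 library left out, the first was kept in 7 of 12 fits and the second in 4 of 12, with adjusted p up to 0.12 and 0.17, and ZR-75-1 DMSO replicate 3 gave the largest of each when left out. The palbociclib call was also lost with upper-quartile scaling (adjusted p = 0.055) and without a filter on low counts (adjusted p = 0.082).

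FTL stood just outside, with 0.29 ± 0.11 for abemaciclib (adjusted p = 0.063) and 0.25 ± 0.11 for palbociclib (adjusted p = 0.11). For abemaciclib it was called with RLE scaling (adjusted p = 0.044), with upper-quartile scaling (0.047), in DESeq2 (0.022) and without mitochondrially encoded genes (0.34, adjusted p = 0.025), and the last also gave a palbociclib call (0.30, adjusted p = 0.048). FTH1, with -0.12 ± 0.10 (adjusted p = 0.47) and -0.21 ± 0.10 (adjusted p = 0.15), was not called. HMOX1 had intervals too wide to read, from -1.05 to 1.09 for abemaciclib and from -0.00 to 1.89 for palbociclib. Without ZR-75-1 DMSO replicate 2, which held 25 HMOX1 counts, the palbociclib difference was 1.87 (adjusted p = 0.0065).

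Abemaciclib and palbociclib are different molecules that both inhibit CDK4 and CDK6. They were compared at the same dose and time, as 1 pair of compounds in each of the 2 lines. Whether the dose had an equal effect, and whether other targets played a part, was not tested. NQO1 separated the 2 drugs in both lines. CAMA-1 had less NQO1 with abemaciclib than with palbociclib by a log2 difference of -0.67 ± 0.08 (adjusted p = 2.0e-07), and in ZR-75-1 by -0.75 ± 0.09 (adjusted p = 1.0e-08). It was the only member called in either line, so 0 of 8 were higher and 1 of 8 lower, where 0.796% and 1.53% of all tested genes were called in CAMA-1. The same shares in ZR-75-1 were 5.23% and 7.94%. DESeq2 called 0 members higher in either line too, and at an unadjusted p under 0.05 edgeR also had 0.

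For the other members the intervals of the drug difference bound what could have been missed. FTH1 had a 95% confidence interval of -0.14 to 0.13 log2 units in CAMA-1 and -0.07 to 0.22 in ZR-75-1. FTL was lower with abemaciclib in every library of both lines, by -0.20 (-0.36 to -0.04, adjusted p = 0.22) in CAMA-1 and -0.16 (-0.31 to -0.01, adjusted p = 0.17) in ZR-75-1, and was not called. GPX4 intervals ran from -0.15 to 0.17 and from -0.13 to 0.21. GCLM was -0.20 (-0.43 to 0.04) and -0.22 (-0.50 to 0.07), also without overlap between the drugs in either line. TXNRD1 was -0.37 (-0.73 to -0.01, adjusted p = 0.37) in CAMA-1 and 0.10 (-0.20 to 0.40) in ZR-75-1. GCLC and HMOX1 had wider intervals, which in ZR-75-1 reached from -0.66 to 0.78 and from -1.89 to 0.21.

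Without a drug, the lines already differed in 6 of the 8 members. With DMSO, 1 member was higher in ZR-75-1 and 5 were lower, where 31.5% and 29.8% of 11987 genes were. GCLC was lower by a log2 difference of -2.71 ± 0.23 (adjusted p = 1.9e-16), HMOX1 by -2.42 ± 0.31 (adjusted p = 7.8e-10; -3.37 without ZR-75-1 DMSO replicate 2), NQO1 by -1.40 ± 0.08 (adjusted p = 5.3e-23), GCLM by -1.21 ± 0.12 (adjusted p = 8.8e-14) and GPX4 by -0.47 ± 0.08 (adjusted p = 2.3e-06). TXNRD1 alone was higher in ZR-75-1, by 0.77 ± 0.16 (adjusted p = 1.7e-05). FTH1 and FTL were close in level, with differences of -0.01 ± 0.07 and 0.04 ± 0.08 and intervals of -0.15 to 0.14 and -0.13 to 0.21. The line and the culture it was grown from cannot be told apart in such a difference.

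Ordered by group mean, the ferritin subunits grouped by treatment and the glutathione genes by line. For FTL the order was ZR-75-1 with palbociclib (280.3 CPM), ZR-75-1 with abemaciclib (251), CAMA-1 with palbociclib (228), CAMA-1 with abemaciclib (199), ZR-75-1 with DMSO (142) and CAMA-1 with DMSO (138), of which the second and the third overlapped, as did the DMSO groups. For GCLM all CAMA-1 groups (86.7, 59.7 and 52.4 CPM with DMSO, palbociclib and abemaciclib) lay above all ZR-75-1 groups (42.2, 37.6 and 36.5 CPM with palbociclib, DMSO and abemaciclib). Among neighbours, only ZR-75-1 with DMSO and with abemaciclib overlapped. For NQO1 the lines interleaved, since CAMA-1 with abemaciclib (129 CPM) had come down to the level of ZR-75-1 with DMSO (125), with which it overlapped, and below ZR-75-1 with palbociclib (157). TXNRD1 had the reverse order of lines, from 47.0 CPM in ZR-75-1 with DMSO to 18.9 CPM in CAMA-1 with abemaciclib.

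The sensors and partners of the pathway were described from a list of 10 NRF2 regulators. NFE2L2 itself was at 47.1 to 63.0 CPM over all libraries and was not called in any comparison with DMSO, with log2 fold changes of 0.12 and 0.10 in CAMA-1, then 0.08 and 0.03 in ZR-75-1 (adjusted p from 0.49 to 0.89). Message levels of NFE2L2 do not report the NRF2 protein. KEAP1 rose with palbociclib in CAMA-1 (0.40 ± 0.15, adjusted p = 0.027), from 32.9, 26.5 and 29.9 CPM to 39.0, 36.4 and 45.9 CPM. Its abemaciclib difference there was 0.14 ± 0.15 (adjusted p = 0.51). In ZR-75-1 KEAP1 lay lower with abemaciclib without overlap (-0.39 ± 0.16, adjusted p = 0.054). The palbociclib difference in that line was -0.31 ± 0.16 (adjusted p = 0.14), and neither was called.

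BACH1, the repressor at antioxidant response elements and a classical repressor of HMOX1, differed far more between the lines than any member. In CAMA-1 it was at 312, 336 and 332 CPM with DMSO, 474, 454 and 461 CPM with abemaciclib, and 525, 531 and 546 CPM with palbociclib. In ZR-75-1 with DMSO it was at 4.91, 5.22 and 3.45 CPM, a log2 difference of -6.15 ± 0.13 (adjusted p = 2.4e-46). In CAMA-1 BACH1 rose by 0.47 ± 0.07 with abemaciclib (adjusted p = 1.0e-07) and, for palbociclib, by 0.68 ± 0.06 (adjusted p = 1.4e-11). The palbociclib change in ZR-75-1 went the other way, at -1.48 ± 0.52 (adjusted p = 0.025), without overlap with DMSO. For abemaciclib in that line the change was -0.40 ± 0.47 (adjusted p = 0.55), and the libraries overlapped. Both ZR-75-1 values rest on few counts, with a BACH1 mean of 9.67 a library.

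Among the other regulators, SQSTM1, an autophagy receptor that binds KEAP1, rose in all 4 comparisons with DMSO by 0.21 to 0.25 log2 units, and RBX1, the RING subunit of the KEAP1 ligase, fell in all 4 by 0.34 to 0.60. CUL3, its scaffold, fell in CAMA-1 with both drugs (-0.47 and -0.50). MAFF, a small MAF protein, rose with palbociclib in CAMA-1 (1.27 ± 0.47, adjusted p = 0.03), on a mean of 13.8 counts a library. Of the 10 regulators in CAMA-1, 3 rose and 2 fell under abemaciclib, while under palbociclib 5 rose and 2 fell (DESeq2 called 1 higher and 2 lower). In ZR-75-1 the counts were 1 up and 1 down under abemaciclib, then 1 up and 2 down under palbociclib. Of all tested genes in CAMA-1, 20.3% rose and 20.1% fell under abemaciclib, and 18.4% and 18.7% under palbociclib. The shares in ZR-75-1 were 17.9% and 18.3%, then 14.5% and 13.4%.

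Other genes described as NRF2 targets moved in both directions. Of 20 listed, 11 passed the filter in CAMA-1 and 13 in ZR-75-1. PGD, a dehydrogenase that yields NADPH, rose with palbociclib in CAMA-1 (0.49) and with both drugs in ZR-75-1 (0.68 and 0.68), whereas the transketolase TKT fell in all 4 comparisons, by 0.30 to 0.79. PIR, an iron-binding nuclear protein, fell with abemaciclib in CAMA-1 (-1.33 ± 0.34) and with both drugs in ZR-75-1 (-0.91 ± 0.18 and -0.49 ± 0.17). The carbonyl reductase CBR1 fell in CAMA-1 with both drugs (-1.37 ± 0.29 and -0.96 ± 0.27). OSGIN1 rose with palbociclib in ZR-75-1 (1.68 ± 0.21, adjusted p = 4.3e-09), from 13.1, 12.0 and 8.29 CPM to 37.0, 25.8 and 44.8 CPM. It was lower with abemaciclib than with palbociclib there by a log2 difference of -1.22 ± 0.20 (adjusted p = 8.2e-06), the same direction as NQO1. In CAMA-1, 2 of this list rose and 4 fell under abemaciclib, while under palbociclib 3 rose and 3 fell. In ZR-75-1 the counts were 4 up and 2 down under abemaciclib, then 5 up and 2 down under palbociclib. The shares of all tested genes, up and down, were 20.3% and 20.1%, then 18.4% and 18.7%, in CAMA-1. For ZR-75-1 they were 17.9% and 18.3%, then 14.5% and 13.4%.

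**Figure D4:**
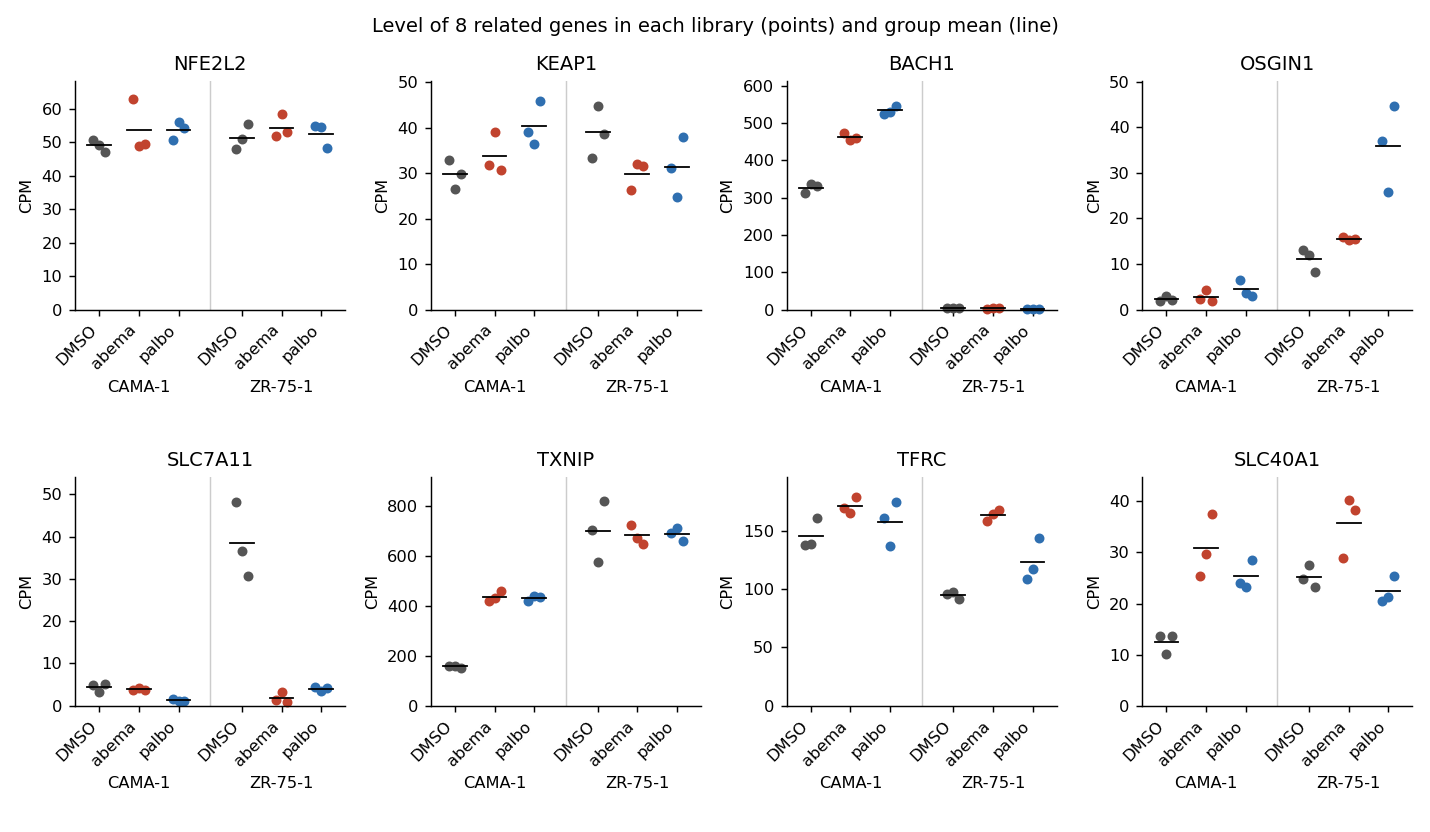
Level in CPM (vertical axes, linear from 0) of 8 related genes in each library (points) with group means (lines): NFE2L2, KEAP1, BACH1, OSGIN1, SLC7A11, TXNIP, TFRC and SLC40A1. BACH1 is at 312 CPM or more in CAMA-1 and at most 5.22 CPM in ZR-75-1. OSGIN1 rises with palbociclib in ZR-75-1, and SLC7A11 falls with either drug in ZR-75-1.

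Of 22 glutathione genes outside the members, 16 were tested in CAMA-1, where 1 rose and 9 fell with abemaciclib (20.3% and 20.1% of all tested genes did) and 1 rose and 8 fell with palbociclib (18.4% and 18.7%). In ZR-75-1, 15 were tested, and 2 rose and 8 fell with abemaciclib (17.9% and 18.3% of all genes) while 0 rose and 6 fell with palbociclib (14.5% and 13.4%). DESeq2 too called 0 higher with palbociclib, and edgeR had 2 higher, GSS and MGST2, at an unadjusted p under 0.05. Whether the list differed from other genes was not tested. GGCT, the gamma-glutamylcyclotransferase, fell in all 4 comparisons, from -1.01 ± 0.08 with abemaciclib in CAMA-1 to -0.39 in ZR-75-1. The glutathione transferase GSTM3 was the gene that rose in CAMA-1 with both drugs (0.73 ± 0.06 and 0.68 ± 0.06). GSS rose with abemaciclib in ZR-75-1 without overlap (0.71 ± 0.16, adjusted p = 0.0002). The list median was -0.38 (abemaciclib) and -0.30 (palbociclib) in CAMA-1, then -0.39 and -0.36 in ZR-75-1.

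SLC7A11, the cystine carrier that supplies cysteine for glutathione, had the largest fall among the tested genes of these lists. In ZR-75-1 it went from 48.1, 36.5 and 30.7 CPM with DMSO to 1.33, 3.13 and 0.79 CPM with abemaciclib (-4.41 ± 0.32, adjusted p = 2.3e-17) and 4.49, 3.39 and 4.12 CPM with palbociclib (-3.25 ± 0.27, adjusted p = 6.5e-15). CHAC1, which degrades glutathione, fell with it in ZR-75-1 (-3.21 ± 0.46 and -3.25 ± 0.44). SLC3A2, the partner chain of SLC7A11, fell in all 4 comparisons, by 1.27 and 1.16 in ZR-75-1 and by 0.33 with each drug in CAMA-1. In CAMA-1 SLC7A11 was already low, at 3.35 to 5.06 CPM with DMSO. It fell there with palbociclib (-1.76 ± 0.50, adjusted p = 0.0040), while the abemaciclib difference was -0.22 ± 0.43 (adjusted p = 0.71).

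The list of thioredoxin, peroxiredoxin, superoxide dismutase and catalase genes has 18 genes, of which SOD2 was not matched to a row, and 16 were tested in CAMA-1 and 17 in ZR-75-1. TXNIP, the thioredoxin-binding protein that also restrains glucose uptake, rose in CAMA-1 from 161, 160.4 and 151 CPM to 418, 433 and 460.4 CPM with abemaciclib (1.45 ± 0.07) and 421, 437 and 433 CPM with palbociclib (1.42 ± 0.07). In ZR-75-1 it was higher throughout, at 575 to 821 CPM, with differences of -0.04 ± 0.08 and -0.03 ± 0.08. The response differed between the lines by -1.51 ± 0.11 (adjusted p = 2.3e-17) and -1.48 ± 0.11 (adjusted p = 5.9e-17). PRDX4, a peroxiredoxin of the endoplasmic reticulum, fell in CAMA-1 with both drugs (-0.97 ± 0.12 and -0.86 ± 0.12), and PRDX5 rose in all 4 comparisons (0.56 and 0.49 in CAMA-1, 0.60 and 0.61 in ZR-75-1). SESN2 rose with abemaciclib in CAMA-1 (0.56 ± 0.13) and fell with palbociclib in ZR-75-1 (-0.63 ± 0.11). In CAMA-1, 3 rose and 5 fell under abemaciclib, while under palbociclib 2 rose and 4 fell. In ZR-75-1 the counts were 4 up and 1 down under abemaciclib, then 7 up and 1 down under palbociclib. Among all tested genes of CAMA-1 the shares up and down were 20.3% and 20.1%, then 18.4% and 18.7%. They were 17.9% and 18.3%, then 14.5% and 13.4%, in ZR-75-1.

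Iron and haem genes were read beside ferritin because the ferritin chains rose in both lines. Of 20 listed, 19 were tested in CAMA-1 and all 20 in ZR-75-1. SLC40A1, ferroportin, the cellular iron exporter, rose in CAMA-1 from 13.7, 10.0 and 13.6 CPM to 25.4, 29.6 and 37.5 CPM with abemaciclib (1.26 ± 0.19, adjusted p = 9.0e-07) and 24.1, 23.3 and 28.6 CPM with palbociclib (0.97 ± 0.20, adjusted p = 8.9e-05). Its rise in ZR-75-1 with abemaciclib was smaller (0.49 ± 0.17, adjusted p = 0.020), and the palbociclib difference was -0.18 ± 0.18 (adjusted p = 0.50). TFRC, the transferrin receptor that brings iron in, rose in ZR-75-1 from 96.3, 97.6 and 91.6 CPM to 159, 165 and 168 CPM with abemaciclib (0.77 ± 0.10, adjusted p = 1.9e-09) and 109, 118 and 144 CPM with palbociclib (0.37 ± 0.10, adjusted p = 0.0025). In CAMA-1 its differences were 0.20 ± 0.09 (adjusted p = 0.072) and 0.07 ± 0.09 (adjusted p = 0.56).

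NCOA4, the receptor that carries ferritin to the lysosome, rose in CAMA-1 (0.52 and 0.49) and was at 0.15 and 0.08, not called, in ZR-75-1. HMOX2, the constitutive haem oxygenase, rose in all 4 comparisons (0.38 to 0.50), unlike HMOX1. ALAS1 rose in CAMA-1 with both drugs (0.73 ± 0.28 and 0.99 ± 0.27). The iron chaperones PCBP1 and PCBP2 fell in all 4, by 0.22 to 0.65, as did the biliverdin reductase BLVRA, by 0.34 to 0.68, while BLVRB fell in CAMA-1 (-0.92 ± 0.08 and -0.46). The sensor ACO1 rose in ZR-75-1 (0.54 and 0.51), and IREB2, the other sensor, had differences of -0.14 to 0.01 and was not called. In CAMA-1, 7 rose and 5 fell under abemaciclib, while under palbociclib 6 rose and 6 fell. In ZR-75-1 the counts were 4 up and 3 down under abemaciclib, then 5 up and 3 down under palbociclib. Shares of all tested genes, up and down, were 20.3% and 20.1%, then 18.4% and 18.7%, in CAMA-1. Those of ZR-75-1 were 17.9% and 18.3%, then 14.5% and 13.4%.

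Of 6 genes of lipid peroxidation, 4 were tested in CAMA-1 and 6 in ZR-75-1. ACSL3, which activates monounsaturated fatty acids, rose with abemaciclib in CAMA-1 (0.65 ± 0.07) and ZR-75-1 (0.30) and with palbociclib in CAMA-1 (0.27). LPCAT3 rose with abemaciclib in CAMA-1 (0.58), and AIFM2, a reductase that protects membranes beside GPX4, fell with abemaciclib in ZR-75-1 (-1.10). Palbociclib gave 0 called genes of the list in that line in edgeR or DESeq2, and at an unadjusted p under 0.05 edgeR had LPCAT3 alone. Of all tested genes, edgeR called 14.5% higher and 13.4% lower in that comparison.

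**Figure D5:**
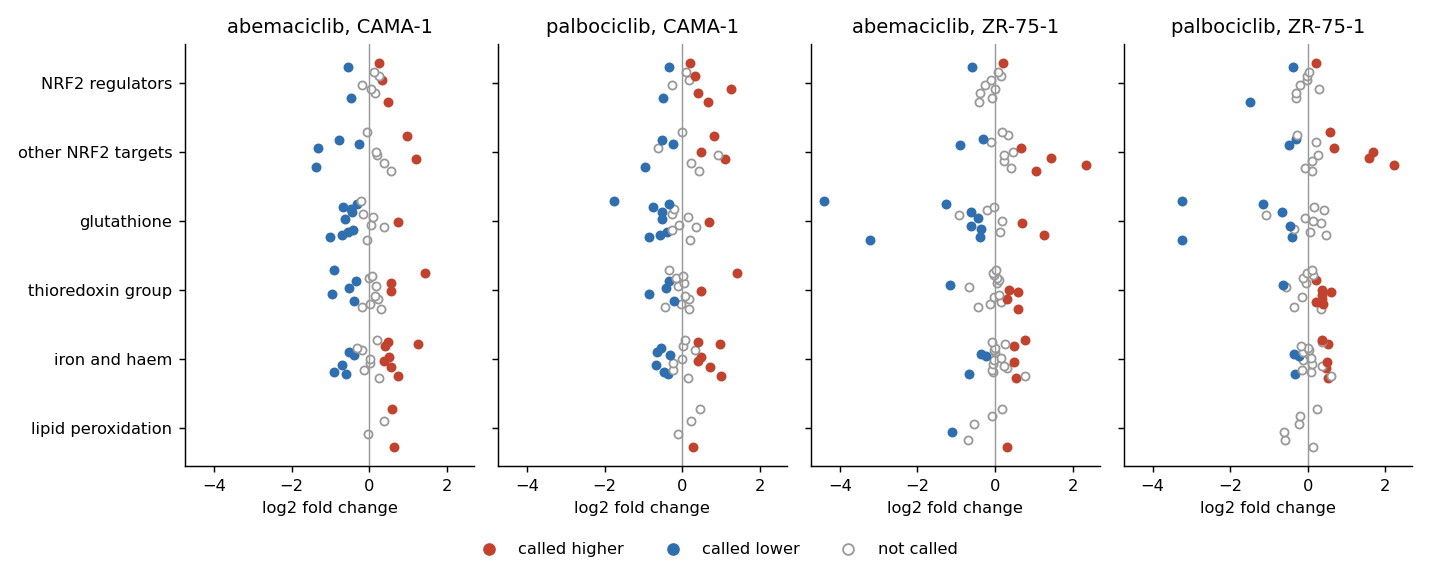
Log2 fold change against DMSO (horizontal axes) of each tested gene in 6 lists of related genes, in 4 panels by drug and line; filled red points are called higher, filled blue points lower, and open points are not called. The 2 blue points near -3 or beyond in each ZR-75-1 panel are SLC7A11 and CHAC1.

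Genes absent from 1 line with DMSO were given as bounds. GPX1, a cytosolic glutathione peroxidase, had 153 to 232 counts in the CAMA-1 libraries and 0 or 1 in ZR-75-1, at least 55.7-fold lower against a floor of 3 counts per library. MGST1 was at least 67.3-fold lower in ZR-75-1, and ME1, an NADPH-producing malic enzyme, was at least 27.8-fold higher there. GSTM3 was at 398 to 417 CPM in CAMA-1 with DMSO and 0.65 to 2.42 CPM in ZR-75-1.

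To see which transcripts shared the pattern of each member, the line mean was subtracted from log2(CPM + 0.5) and Pearson's r was taken over the 18 libraries for 10123 genes tested in both lines. These are descriptions only, since the libraries share treatments, depth and scaling. NQO1 was most like MCM3 and MCM2 (r = 0.93 for each), subunits of the replicative helicase. GCLM was most like the ribosomal protein genes RPS3A (0.95) and RPS7 (0.93), FTL like TPD52L1 and AHCYL1 (0.97 for each), and FTH1 like ABCC11 (0.96) and MAP1LC3B (0.94), the latter a marker of autophagosomes. The highest r of the other members was lower, for HMOX1 with SNRNP70 (0.85), TXNRD1 with FA2H (0.84), GCLC with SMIM26 (0.81) and GPX4 with CTDNEP1 and CDK4 (0.81 for each). Among the members, r was 0.84 for NQO1 with GCLM and 0.76 for FTH1 with FTL, against -0.71 for GCLM with FTH1 and 0.51 for GCLC with GCLM.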

How the data were processed

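The authors deposited raw counts per gene from 18 QuantSeq 3′ libraries (hg38; STAR 2.7.5b and featureCounts 2.0.1 in the submitters' processing notes). The labels name a reverse kit and the methods of the study a forward kit. Strand setting, treatment of multiply aligned reads and use of molecular identifiers are not given in the sources used here, so genes with near-identical copies or overlaps are less certain. Coordinates are from GENCODE release 44 on GRCh38, promoters from RefSeq.

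Counts were filtered with filterByExpr, scaled by TMM and tested with edgeR 4.0.16 (R 4.3.3; quasi-likelihood F test), for each line over its 9 libraries and for line differences over all 18. Fold changes of a line therefore differ slightly between fits. The edgeR step was tested on simulated data. Ratios and shares used exact two-sided permutation tests. The study used DESeq2, run here (1.42.0) as an alternative. The members and lists were chosen with earlier results of these data known. Beyond members and 7 related genes, the genes named were up to 2 per list, comparison and direction, with a mean of at least 10 counts and no overlap between groups, and the 2 most alike per member. Not every gene that this rule picks is named in the text. SLC3A2, NCOA4, HMOX2, IREB2, MGST1, GSS with palbociclib and further genes or comparisons outside this rule were chosen after their values were seen. 1 gene of the list of other NRF2 targets is counted but not reported by name here.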

Additional observations from a re-analysis of the deposited data

Results flagged for a closer look

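Responses that differed between the lines by the interaction test of edgeR were those of 3 members, each with both drugs, with the CAMA-1 response subtracted from the ZR-75-1 response on the log2 scale. For NQO1 the difference was 0.93 with abemaciclib and 1.01 with palbociclib. For GCLM it was 0.69 and 0.71. For GPX4 it was 0.35 and 0.32. The pairs share their DMSO libraries, so the 2 drugs are not independent repeats. The share of mitochondrially encoded counts rose with treatment in CAMA-1 and not in ZR-75-1, and without those genes the 6 values were 0.97, 1.06, 0.74, 0.76, 0.40 and 0.37, all still called.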

How the results depend on the processing

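Each member's log2 fold change in 9 comparisons was recomputed under other settings. With the replicate number as a block, all 72 member results kept their call, and the members called in each comparison numbered the same: 8, 7 and 1 in CAMA-1, 3, 3 and 1 in ZR-75-1, 3 and 3 for the line differences and 6 between lines with DMSO. Deviations of same-numbered libraries correlated by -0.049 to 0.031 over 18 pairs, so no pairing by number was seen. Counting noise at low counts per gene can hide such a pairing, so it is not excluded. Leaving out 1 library moved the members called for the palbociclib line difference between 2 and 5, the latter without ZR-75-1 DMSO replicate 2. Over these fits 499 member results kept their call, 20 lost it and 9 gained it. The FTH1 to FTL line difference with DMSO (log2 ratio) ranged from -0.12 to 0.049, the GCLM to GCLC difference with palbociclib from -0.17 to 0.014 in CAMA-1 and from -0.24 to 0.28 in ZR-75-1, and the ferritin share, abemaciclib minus palbociclib in ZR-75-1, from -0.00265 to 0.00170 percentage points. The last was 0.000393 without mitochondrially encoded counts in the total; the cause was not tested. DESeq2 called fewer genes than edgeR in every comparison within a line. It called 3503 against 4457 with abemaciclib and 3205 against 4102 with palbociclib in CAMA-1. In ZR-75-1 it called 3113 against 3985 with abemaciclib, 2203 against 3069 with palbociclib and 898 against 1451 between the drugs. It called 3 NRF2 regulators with palbociclib in CAMA-1 (7 in edgeR), 4 other NRF2 targets (7) and 5 iron and haem genes (8) with palbociclib in ZR-75-1, 1 lipid gene (2) with abemaciclib in either line, and between the drugs in ZR-75-1 0 glutathione genes (2) and 1 thioredoxin group gene (3). Under the block 9 iron and haem genes differed between lines with DMSO, against 14. In ZR-75-1 HMOX1 and GCLC had 6 to 26 counts a library, which limits their precision.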
